A study of Arabidopsis thaliana with 6 samples.

Results

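The SPL transcription factors that carry a site for the microRNA miR156 were followed in inflorescence apices of Arabidopsis thaliana in which AP2m3 had been switched on with dexamethasone. The members are 10 loci chosen by their identifiers, SPL3 (AT2G33810), SPL4 (AT1G53160), SPL5 (AT3G15270), SPL9 (AT2G42200), SPL15 (AT3G57920), SPL2 (AT5G43270), SPL10 (AT1G27370), SPL11 (AT1G27360), SPL6 (AT1G69170) and SPL13A (AT5G50570), out of 28775 loci in the table of counts. The 3 dexamethasone libraries, named Dx4, Dx5 and Dx6, came from plants given dexamethasone, which per the labels allows AP2m3 to be expressed. The 3 mock libraries, named CT1, CT2 and CT3, came from mock-treated plants. All plants were treated 2 weeks after bolting under 16 h of light and 8 h of dark at 21 °C, and the shoot tips were taken 6 to 8 h later without their visible flower primordia. AP2m3 is known as a form of APETALA2 (AP2) that escapes the microRNA miR172. The sources used here do not give the strain, the promoter behind the induction, the number of lines or whether mock plants carried the transgene too. They also do not state that samples of 1 group are separate plants, so the p-values cover a spread between libraries that may be technical.

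SPL proteins bind DNA through an SBP domain that reads a GTAC core. In young plants miR156 is abundant and holds their transcripts down; as the shoot ages miR156 declines and the SPL genes rise, which moves the plant from juvenile to adult growth and towards flowering. One branch of this age pathway runs through SPL9, which activates a MIR172 gene, and miR172 in turn represses AP2 and its relatives. In this branch SPL9 therefore stands upstream of AP2, and the comparison asks whether raising AP2 also moves the SPL genes.

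The miR156 site itself separates the members into classes, so the sequences are shown before the values. The miR156 sequence below is the one that MIR156A to MIR156F share in the RefSeq annotation of assembly TAIR10.1 (6 of the 12 precursors MIR156A to MIR156H and MIR157A to MIR157D), with the seed, bases 2 to 8, in capitals. Under it are the best ungapped pairing sites in the SPL transcripts, each 20 bases long. Capitals in a site mark bases that do not form a Watson-Crick pair with this miR156.
miR156: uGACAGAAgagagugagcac
SPL9: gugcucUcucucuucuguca
SPL4: CugcucUcucucuucuguca
SPL5: CCgcucUcucucuucuguca
SPL3: UugcuUacucucuucuguca

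The SPL9 sequence stood unchanged in 8 genes, namely SPL9, SPL15, SPL2, SPL10, SPL11, SPL6 and the SPL13A and SPL13B copies, with 19 of 20 bases paired. In each of these the site lay inside the coding sequence of the transcript with the longest reading frame (for SPL9 at chr2:17589066-17589085, plus strand). SPL3, SPL4 and SPL5 encode short proteins and carry the site in the 3′ UTR, 50, 10 and 7 bases after the last base of the reading frame. Their pairing was less complete, with 18, 18 and 17 Watson-Crick pairs, and SPL3 had 1 further wobble pair. The SPL4 site lay at chr1:19807090-19807109, plus strand, and was present in 1 of the 3 annotated SPL4 transcripts. The counts are per locus and do not tell these transcripts apart. Among 31346 nuclear genes scanned the same way, 17 held a site with at most 3 penalty points (1 for an unpaired base and 0.5 for a wobble), the score of SPL5. Of these 17, 11 were the SPL genes named here. The other SPL genes, SPL1, SPL7, SPL8, SPL12, SPL14 and SPL16, held none.

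**Figure D1:**
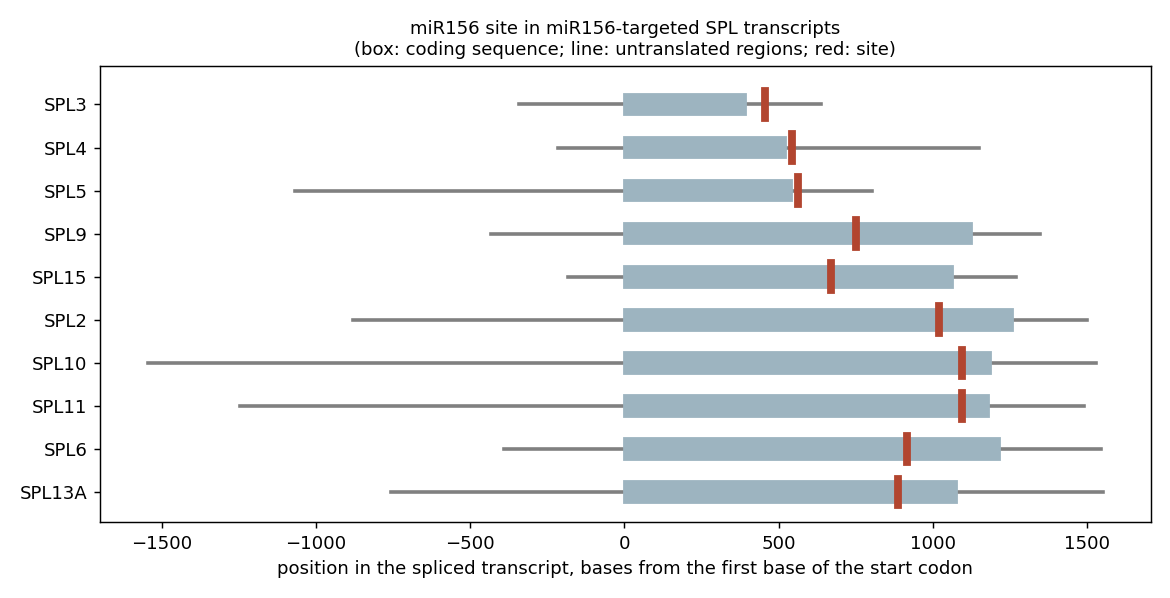
Spliced transcripts of the 10 members, aligned at the start codon; the horizontal axis gives bases from its first base, boxes are coding sequence, grey lines are untranslated regions and the red mark is the miR156 site. The site follows the reading frame by 7 to 50 bases in SPL3, SPL4 and SPL5 and lies inside it in the other members.

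Total counts were 1833795 to 2109788 in the dexamethasone libraries and 1633571 to 2196781 in the mock libraries, and levels are given as CPM, counts scaled to a common library size with TMM. A count of 0 allows up to 3 counts, or 1.38 to 1.88 CPM in these libraries, and such floors cover counting error only. AP2 stood at 1100, 1187 and 1009 CPM in Dx4, Dx5 and Dx6, against 55.7, 60.5 and 78.1 CPM in CT1, CT2 and CT3, and the counts do not separate AP2m3 reads from those of the resident gene. The mock libraries were spread, with CT1 at one end and CT3 nearest to the dexamethasone group in several of the genes below. The sum of 8 dawn-phased clock genes was 61.9, 53.5 and 41.4 CPM in Dx4, Dx5 and Dx6, against 165, 121 and 73.5 CPM in CT1, CT2 and CT3. Of the meristem markers, CLV1, STM, BP and WUS were present, and CLV3 was listed at 0 in every library.

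Of the 10 members, 7 passed the filter on low counts and 3 could not be followed. SPL5 and SPL13A had no count in any of the 6 libraries, and SPL3 had 0 counts in Dx4, Dx5 and Dx6 and 1, 1 and 0 in CT1, CT2 and CT3. At this depth a level under the floor of 3 counts per library cannot be seen, and no fold was computed. SPL13A shares 100% of its 50-base exon words with other places in the genome, as does its copy SPL13B (AT5G50670), which was also at 0 throughout. The exons of SPL3 are overlapped over 97.3% of their length by an annotated antisense RNA, AT2G33815, whose own counts were 0 in all libraries. SPL5 is overlapped over 25.5% by AT3G15260 on the other strand, which had 63 to 76 counts in dexamethasone libraries and 55 to 74 in mock libraries. Over the whole table, 154 of 391 protein-coding loci overlapped over more than 90% had no count (39.4%), against 422 of 6390 loci overlapped over at most 50%, the class of SPL5 (6.60%), and 4162 of 19493 loci without overlap (21.4%). SPL15, overlapped over 100% in the RefSeq annotation, was nevertheless counted at 41 to 67 reads per library. Of the exon bases of SPL4 14.4% lie opposite MIR156i, and of those of SPL9 3.82% lie opposite MIR156j. The deposited counts have no entry under the RefSeq identifiers of these precursors. Whether reads of SPL3, SPL5 or SPL13A were left out in counting was not tested.

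SPL4 was the one member called by the edgeR quasi-likelihood test, and it fell. SPL4, which with SPL3 and SPL5 promotes the floral transition and can act with the flowering regulator FD, stood at 195, 220.5 and 214 CPM in Dx4, Dx5 and Dx6. Its mock level was 380.2 CPM in CT1, 320.0 CPM in CT2 and 234 CPM in CT3. The groups did not overlap, but CT3 lay only just above the highest dexamethasone library. The mean was 210.0 ± 13.2 CPM with dexamethasone and 311 ± 73.5 CPM in mock (SD, n = 3 each), a fold of 0.676 with a 95% interval of 0.545 to 0.839 (log2 fold change -0.56 ± 0.15 SE, edgeR adjusted p = 0.0152). Of all 15857 genes tested, 8.02% were called lower and 5.86% higher, and 13.9% were called in either direction, so 1 lower call and 0 higher calls among 7 members is a share near the background. At an unadjusted p under 0.05, edgeR gave 2 members lower (SPL4, SPL9) and 1 higher (SPL2). The share of all tested genes under that unadjusted threshold was not counted. It is larger than 13.9%, so these counts have no background to be set against. At adjusted p under 0.05 both the DESeq2 Wald test and limma-voom gave 1 lower call and 0 higher calls.

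The SPL4 call was lost when any library but CT3 was left out, with edgeR adjusted p of 0.053 to 0.0985, and without CT1 its log2 fold change was -0.40. It was also lost against a minimum fold of 1.5. Once the dawn-gene score entered the model its log2 fold change was -0.13 (edgeR adjusted p = 0.592). The summed dawn genes did not overlap between the groups, at 41.4 to 61.9 CPM with dexamethasone and 73.5 to 165 CPM in mock. Only 3 of these 8 genes passed the filter on low counts. With 6 libraries that model cannot firmly divide a change between treatment and score, for SPL4 or for the genes below.

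**Figure D2:**
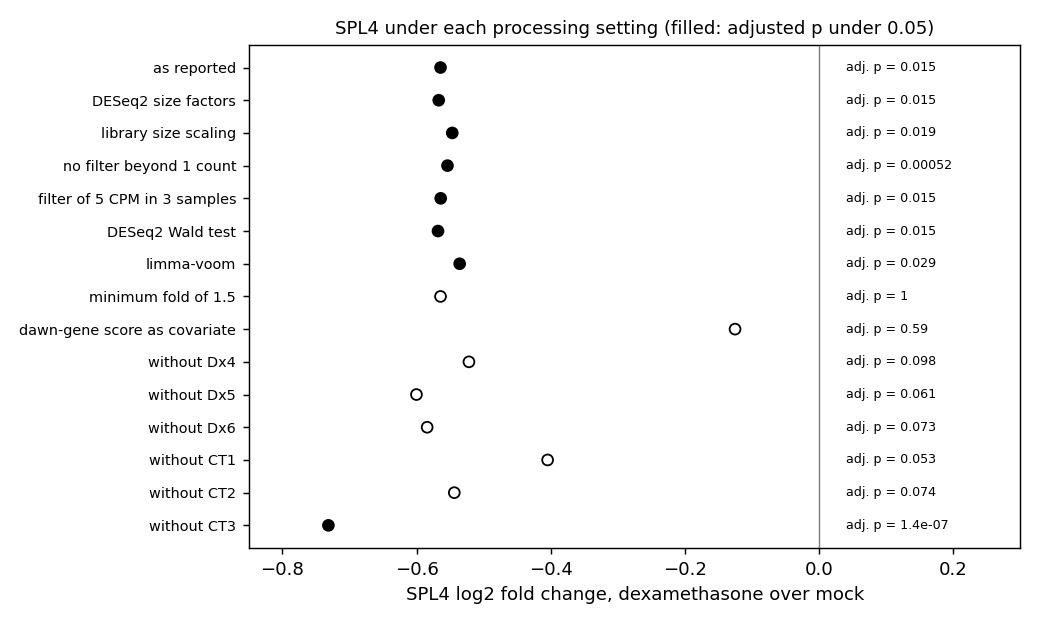
Log2 fold change of SPL4, dexamethasone over mock, as reported and under each of the other settings; filled points passed adjusted p under 0.05. All values lie below 0, from -0.73 without CT3 to -0.13 once the dawn-gene score is in the model, and 7 of the 14 other settings leave SPL4 without a call.

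**Figure D3:**
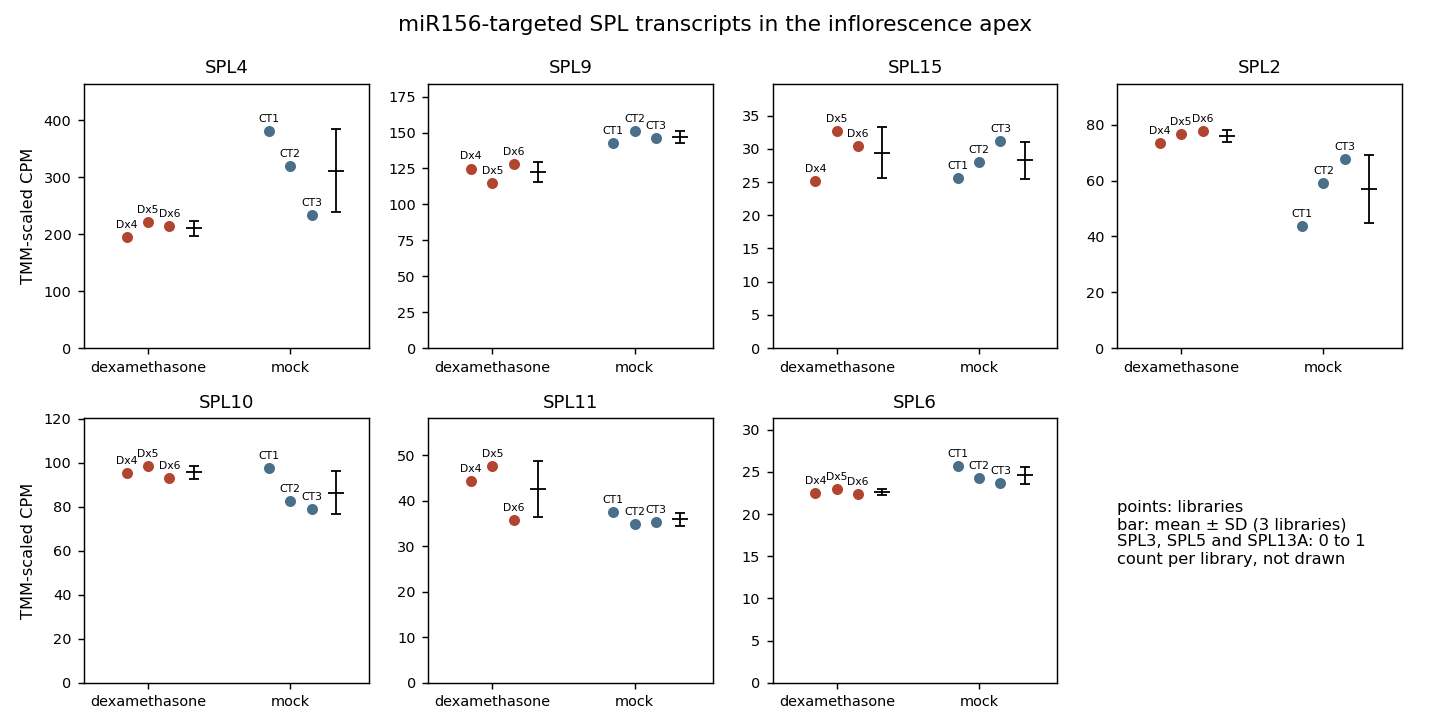
TMM-scaled CPM of the 7 counted members in each library (points, labelled) with the mean ± SD of 3 libraries per group, dexamethasone left and mock right; each axis starts at 0. SPL4 lay lower in all dexamethasone libraries with a wide spread in mock (234 to 380.2 CPM), while SPL2 lay higher (73.4 to 77.6 CPM, against 43.8 to 67.9 CPM in mock).

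SPL9 and SPL15, a closely related pair known to slow leaf initiation and to promote flowering, differed in level. SPL9 stood at 125, 115 and 128 CPM in Dx4, Dx5 and Dx6, against 143, 151 and 146 CPM in CT1, CT2 and CT3. The groups did not overlap and the mock libraries were close together here. The fold was 0.836 with a 95% interval of 0.701 to 0.998 (log2 fold change -0.26 ± 0.12 SE), which did not pass the threshold (edgeR adjusted p = 0.182). SPL15 stood at 25.2, 32.6 and 30.5 CPM in Dx4, Dx5 and Dx6, against 25.7, 28.0 and 31.2 CPM in CT1, CT2 and CT3, and the groups overlapped fully. Its interval ran from 0.806-fold to 1.34-fold (edgeR adjusted p = 0.891), which leaves room for a change in either direction. The direction of SPL15 was not stable across settings.

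SPL2, SPL10 and SPL11, which act together in the shape of lateral organs and in the change to adult leaves, had fold estimates above 1 without a call. SPL2 stood at 73.4, 76.5 and 77.6 CPM in Dx4, Dx5 and Dx6, against 43.8, 59.1 and 67.9 CPM in CT1, CT2 and CT3. Every dexamethasone library lay above every mock library, and the mock spread was wide (mean 75.9 ± 2.18 CPM with dexamethasone and 57.0 ± 12.2 CPM in mock, SD, n = 3 each). The SPL2 fold was 1.32 with a 95% interval of 1.06 to 1.64 (edgeR adjusted p = 0.0873). Without CT3 it was called higher (log2 fold change 0.54, adjusted p = 0.00409), and once the dawn-gene score entered the model it was at 0.08.

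SPL10 stood at 95.4, 98.5 and 92.9 CPM with dexamethasone, against 97.7, 82.5 and 79.1 CPM in mock, a fold of 1.11 with a 95% interval of 0.917 to 1.34 (edgeR adjusted p = 0.515). SPL11, its neighbour on chromosome 1, stood at 44.4, 47.6 and 35.7 CPM with dexamethasone, against 37.6, 34.8 and 35.3 CPM in mock, with an interval of 0.941-fold to 1.49-fold (edgeR adjusted p = 0.356). Both genes overlapped between the groups. SPL6, which has a known part in immunity, had the lowest mean of the counted members, at 22.5, 23.0 and 22.4 CPM with dexamethasone, against 25.7, 24.3 and 23.7 CPM in mock. Its groups did not overlap, yet the difference was small beside its error, with a fold of 0.924 and an interval of 0.712 to 1.199 (edgeR adjusted p = 0.747). In all, groups did not overlap in 4 of the 7 counted members, SPL4, SPL9 and SPL6 lower and SPL2 higher, where 31.0% of all tested genes had groups that do not overlap, 15.9% lower and 15.1% higher. The median log2 fold change of the 7 was 0.05, against 0.00 over all genes tested. Whether members differed from each other in their change was not tested.

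Levels of different genes were compared per kilobase of merged exon in the RefSeq models, which may differ from those used in counting. SPL4 had the highest level, 154 ± 9.70 CPM per kilobase with dexamethasone and 228 ± 53.9 in mock, and SPL9 came next at 68.9 ± 3.83 with dexamethasone and 82.4 ± 2.25 in mock (SD, n = 3 each). Neither range met that of the next gene. With dexamethasone the order below them was SPL10, SPL2, SPL15, SPL11 and SPL6, where SPL10 and SPL2 overlapped over the libraries, as did SPL15 and SPL11. In mock the order was the same, with SPL10 overlapping SPL2, SPL2 overlapping SPL15 and SPL11 overlapping SPL6. The lowest, SPL6, had 11.7 ± 0.175 CPM per kilobase with dexamethasone and 12.7 ± 0.521 in mock.

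**Figure D4:**
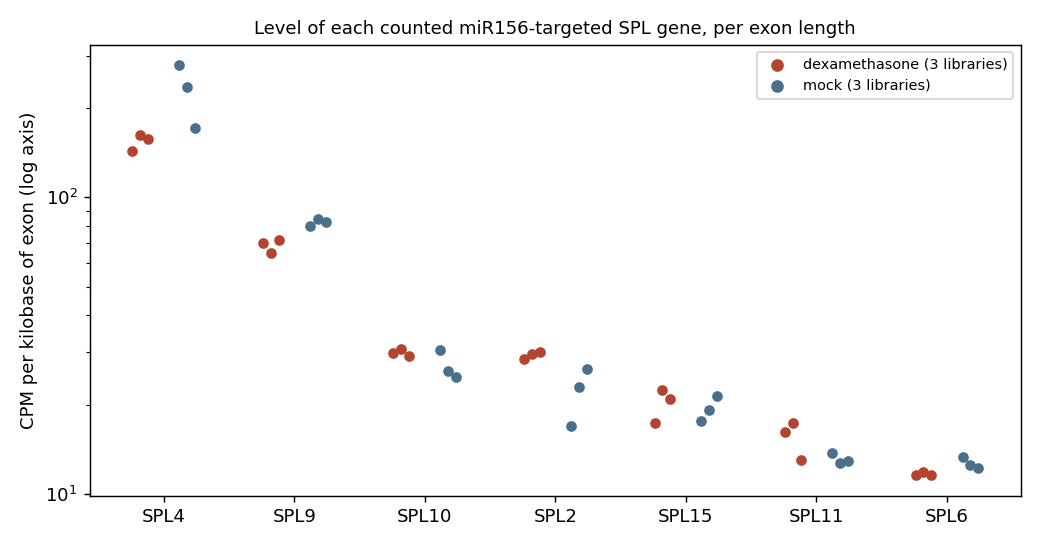
Level of the 7 counted members per kilobase of exon, on a log axis, with 1 point per library, dexamethasone left of mock. SPL4 and SPL9 lie above the other members in every library, and the order of the genes by their mean is the same in both groups.

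SPL4 made up a smaller part of the family in the dexamethasone libraries. Its share of the summed level per kilobase of the members was 45.1%, 47.7% and 47.0% in Dx4, Dx5 and Dx6, against 61.7%, 56.8% and 48.8% in CT1, CT2 and CT3. The share of SPL2 was 8.98%, 8.75% and 9.01% in Dx4, Dx5 and Dx6, against 3.76%, 5.54% and 7.48% in CT1, CT2 and CT3. Both shares were separated between the groups, and in both CT3 lay nearest to the dexamethasone libraries. The ratio of SPL4 to SPL2 per kilobase was accordingly 5.03, 5.45 and 5.22 with dexamethasone, against 16.4, 10.2 and 6.52 in mock. SPL10 was separated too, with shares of 8.73% to 9.45% with dexamethasone and 6.27% to 7.06% in mock. So was SPL11, with 3.91% to 5.14% with dexamethasone and 3.04% to 3.68% in mock. Shares within a library add up to the whole, so a lower SPL4 share goes with higher shares elsewhere in the family. SPL9 kept a share of 20.9 ± 1.63% with dexamethasone and 20.6 ± 2.83% in mock (SD, n = 3 each), a difference smaller than its spread. These shares are a description and were not tested.

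Among SPL genes without a miR156 site, 1 of 6 rose and 0 fell by edgeR. That share is near the 13.9% of all tested genes called in either direction. At an unadjusted p under 0.05 edgeR gave 1 higher and 1 lower, and the share of all tested genes at that threshold was not counted. At adjusted p under 0.05 DESeq2 and limma-voom each gave 1 higher and 0 lower calls. The one that rose was SPL16 (AT1G76580), at 111, 139 and 126 CPM in Dx4, Dx5 and Dx6, against 60.8, 88.9 and 80.5 CPM in CT1, CT2 and CT3 (log2 fold change 0.69 ± 0.15 SE, edgeR adjusted p = 0.00319). SPL12, which with SPL1 is known for thermotolerance of the inflorescence, stood at 57.5, 59.9 and 55.7 CPM with dexamethasone, against 72.0, 81.1 and 73.9 CPM in mock, and just missed the threshold (log2 fold change -0.39 ± 0.13 SE, edgeR adjusted p = 0.0527). SPL12 was called lower without CT1 (log2 fold change -0.43) or without CT3 (-0.42), and SPL16 lost its call against a minimum fold of 1.5. SPL8, a regulator of anther development, had a fold of 0.836 and SPL14 a fold of 1.196, which was called higher without CT3 (log2 fold change 0.58). SPL1 and SPL7 had folds of 1.08 and 1.06, also without a call.

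Genes known as direct or genetic targets of SPL factors were called lower with dexamethasone in 6 of 7 cases and higher in 0 by edgeR. Of all tested genes 8.02% were called lower. The list was chosen with earlier results of these data known, so its counts describe these 7 genes only. Whether their change runs through SPL factors was not tested. At an unadjusted p under 0.05 edgeR gave 7 lower and 0 higher. The share of all tested genes lower at that unadjusted threshold was not counted and is larger than 8.02%. At adjusted p under 0.05 DESeq2 called 5 lower and limma-voom 6, each with 0 higher. SOC1, a MADS-box promoter of flowering that SPL9 activates, stood at 37.8, 27.8 and 38.1 CPM in Dx4, Dx5 and Dx6, against 106, 94.4 and 62.8 CPM in CT1, CT2 and CT3. FUL, a MADS-box gene bound by SPL factors, stood at 42.7, 39.1 and 34.3 CPM with dexamethasone, against 87.1, 81.1 and 70.2 CPM in mock. AP1, LFY and AGL42, which act in floral meristem fate and flowering, changed by log2 fold changes of -0.92, -1.07 and -0.86 (edgeR adjusted p = 0.000141, 0.0051 and 0.00446).

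TRY, a single-repeat MYB that blocks trichomes and is activated by SPL9, also fell, at 5.48, 6.42 and 6.19 CPM with dexamethasone, against 15.03, 14.2 and 10.2 CPM in mock (log2 fold change -1.10 ± 0.30 SE, edgeR adjusted p = 0.0176). Its relative TCL1, activated by SPL9 as well, missed the threshold at -0.77 ± 0.27 (edgeR adjusted p = 0.065). The groups did not overlap in any of the 7, against 15.9% of all tested genes that were lower without overlap, and the median log2 fold change of the list was -1.04. Only SOC1 and FUL kept their calls against a minimum fold of 1.5. Once the dawn-gene score entered the model LFY and TRY lost theirs (edgeR adjusted p = 0.317 and 0.263), and TRY also lost its call in the DESeq2 Wald test and without Dx4, Dx5, Dx6 or CT2 (adjusted p of 0.0589 to 0.0852). AP1 and LFY are also known to be expressed in young flowers. For all 7 genes, fewer cells of a type cannot be told apart from less RNA per cell in these bulk samples.

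**Figure D5:**
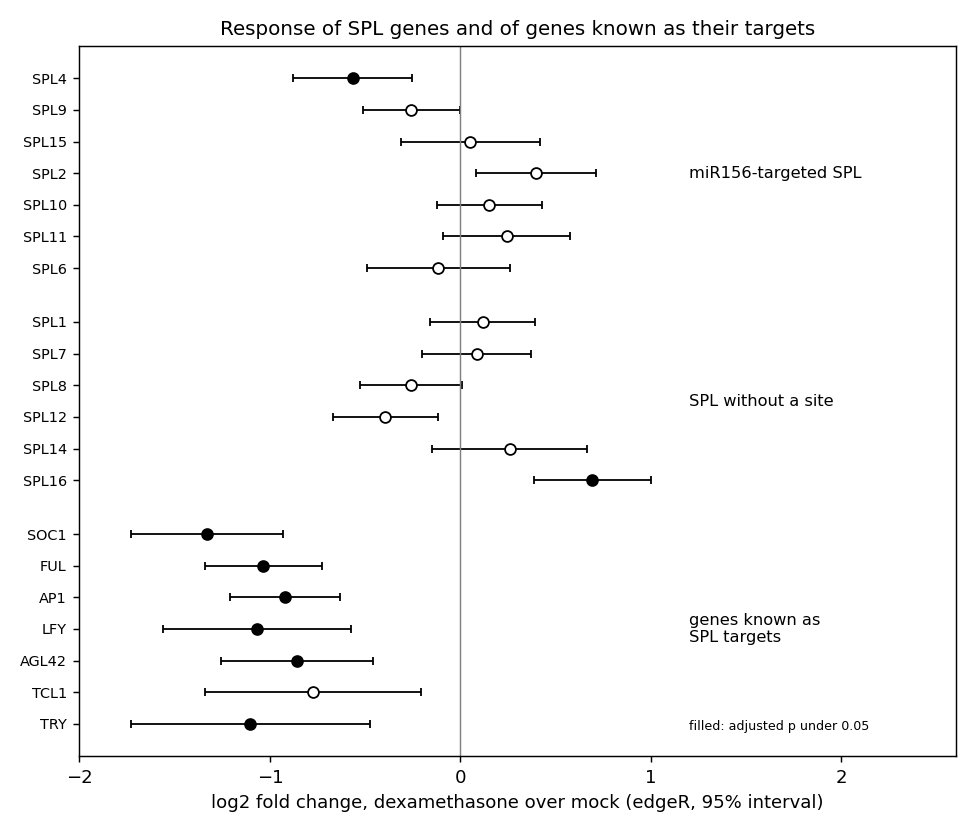
Log2 fold change of dexamethasone over mock with its 95% interval (edgeR, 3 libraries a group) for the 7 counted miR156-targeted SPL genes, the 6 SPL genes without a site and 7 genes known as SPL targets; filled points passed adjusted p under 0.05. SPL4 is the only filled point among the miR156-targeted genes, against SPL16 in the second group and all but TCL1 in the third.

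The steps before the SPL transcripts were mostly out of reach. The 12 precursors MIR156A to MIR156H and MIR157A to MIR157D had at most 2 counts and the 5 MIR172 precursors at most 3 in any library, so none passed the filter. Neither mature microRNA was measured by these poly(A) libraries. Of 7 regulators of MIR156 transcription edgeR called 0 in either direction, where 13.9% of all tested genes were called. It gave 0 at an unadjusted p under 0.05, where the share of all tested genes was not counted. DESeq2 and limma-voom called 0 at adjusted p under 0.05. AGL15, a MADS-box gene known to raise MIR156A, stood at 9.76 ± 1.90 CPM with dexamethasone and 14.3 ± 5.69 CPM in mock (SD, n = 3 each; log2 fold change -0.51, edgeR adjusted p = 0.299), and VAL2, a B3-domain repressor, at 47.0 ± 2.06 CPM with dexamethasone and 39.3 ± 4.71 CPM in mock (log2 fold change 0.25, edgeR adjusted p = 0.304).

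Among 6 genes for protein partners of SPL factors edgeR called 1 higher and 1 lower, against 5.86% and 8.02% of all tested genes. DESeq2 and limma-voom each gave 1 call in each direction. GAI was the one called higher and RGL2 the one called lower. Both are DELLA growth repressors of gibberellin signalling, a class known to bind SPL proteins. GAI stood at 95.4, 88.3 and 93.8 CPM in Dx4, Dx5 and Dx6, against 51.4, 54.1 and 59.1 CPM in CT1, CT2 and CT3 (log2 fold change 0.75 ± 0.13 SE, edgeR adjusted p = 0.000627). RGL2 stood at 40.0, 39.6 and 45.3 CPM with dexamethasone, against 61.4, 57.3 and 78.1 CPM in mock (log2 fold change -0.66 ± 0.15 SE, edgeR adjusted p = 0.00622), a call lost without Dx5 (adjusted p = 0.0516). FD, a bZIP factor, was lower at an unadjusted p under 0.05 but was not called, at 13.7, 8.56 and 15.7 CPM with dexamethasone, against 38.8, 22.0 and 13.5 CPM in mock (log2 fold change -0.91 ± 0.35 SE, edgeR adjusted p = 0.116), and its groups overlapped. CYP78A5, a cytochrome P450 that sets the pace of leaf initiation in parallel with SPL9, fell, at 110.2, 95.3 and 110.5 CPM with dexamethasone, against 189, 137 and 159 CPM in mock (log2 fold change -0.61 ± 0.14 SE, edgeR adjusted p = 0.00513), a call lost without Dx5 (adjusted p = 0.0621). The other plastochron gene, CYP78A7, was not called, at 37.8, 30.5 and 25.7 CPM with dexamethasone, against 24.4, 24.3 and 25.6 CPM in mock (log2 fold change 0.33, edgeR adjusted p = 0.263). GAI, RGL2 and CYP78A5 were not called against a minimum fold of 1.5.

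Markers of other tissues also differed between the groups in part. Of all tested genes edgeR called 8.02% lower and 5.86% higher. The 4 green tissue markers, all detected, summed to 4267 to 4535 CPM with dexamethasone and 7840 to 8998 CPM in mock, and 3 of them fell (LHCB1.3, RCA and RBCS1A). The 3 phloem markers summed to 46.0 to 62.9 CPM with dexamethasone and 69.5 to 92.5 CPM in mock, and 2 fell (SUC2 and SEOR1), calls that were lost without Dx5 or without CT2, and for SEOR1 also without Dx4 and in the DESeq2 Wald test (adjusted p = 0.0702). The third, APL, was not called (log2 fold change 0.29, edgeR adjusted p = 0.654). The 8 flower markers, all with counts, summed to 984 to 1006 CPM with dexamethasone and 1050 to 1235 CPM in mock, and 1 of 7 tested fell (SEP3, 103, 110.8 and 100.5 CPM with dexamethasone, against 160.3, 215 and 238 CPM in mock). AP3 was not called and lay higher, at 197, 185 and 194 CPM with dexamethasone, against 144, 166 and 152 CPM in mock (edgeR adjusted p = 0.0911). PI averaged 182 ± 9.21 CPM with dexamethasone and 178 ± 18.6 CPM in mock (SD, n = 3 each). CRC, SEP2 and AG had folds of 0.748, 0.847 and 0.902 with groups that did not overlap, and SEP1 one of 0.937, all without a call. Of all tested genes 31.0% had groups that do not overlap, 15.9% lower and 15.1% higher. The gap was narrow for CRC (83.8 CPM in Dx4 against 85.1 CPM in CT3) and AG (71.2 CPM in Dx4 against 71.6 CPM in CT3). At an unadjusted p under 0.05 edgeR gave 3 flower markers lower (SEP3, CRC and SEP2) and 1 higher (AP3). The share of all tested genes at that unadjusted threshold was not counted and is larger than the called shares above. Of the 8 dawn-phased clock genes 3 were tested and 1 fell (LNK1). Of the meristem markers CLV1 rose, 1 of 3 tested. Of the called markers in these lists LHCB1.3 alone was also called against a minimum fold of 1.5. The part of these tissues in the SPL values was not tested.

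The 5 genes whose log2 CPM over the 6 libraries was most like that of SPL4, among 11063 genes averaging 20 CPM or more, were AT1G77090, MBF1B, EIF3K, AT2G45820 and AT1G08110, with Pearson r of 0.9955 to 0.997. AT1G77090 stood at 23.0, 26.2 and 26.7 CPM in Dx4, Dx5 and Dx6, against 52.0, 42.6 and 30.2 CPM in CT1, CT2 and CT3, which repeats the SPL4 order of CT1, CT2, CT3 in the mock group. The r is over 6 libraries that share the treatment contrast and the spread of the mock group.

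The window from 250 bases before to 50 bases after the annotated gene start was searched for TTTGTT, an element AP2 is known to bind, and for GTAC, the core of the SBP element, on both strands (TTTGTT reads AACAAA on the other strand). TTTGTT was found in the windows of 8 of 10 members, with SPL3 and SPL9 the exceptions, and in 61.4% of 27444 protein-coding windows. GTAC was found in 4 of 10 members (SPL4, SPL15, SPL11 and SPL6) and in 39.0% of all windows. The 250 bases before the start of SPL4 are shown, since SPL4 was the member called; capitals mark both elements (TAIR10.1, chr1:19806013-19806262, plus strand). A match describes these letters only.
SPL4: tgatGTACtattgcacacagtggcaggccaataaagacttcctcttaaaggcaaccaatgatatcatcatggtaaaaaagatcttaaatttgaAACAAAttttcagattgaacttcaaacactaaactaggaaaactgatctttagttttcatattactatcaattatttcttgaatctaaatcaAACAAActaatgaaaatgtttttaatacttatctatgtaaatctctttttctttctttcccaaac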

How the data were processed

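The authors deposited raw, unnormalized counts for each locus in 3 dexamethasone and 3 mock columns. HTSeq made these counts according to the name of the deposited table. Per the submitters' processing notes TopHat, Bowtie, RSEM and Cufflinks were used, without roles or versions. The sources used here do not give the build, annotation or strand setting; the library kit is stranded, per the labels' protocols. CT columns were taken as mock and Dx columns as dexamethasone, but single columns could not be matched to single samples, because the Dx numbers match no title. The table has 3 blank lines, which hold no gene.

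The test was edgeR 4.0.16 under R 4.3.3 (TMM, filterByExpr with a minimum count of 10, robust quasi-likelihood test, two-sided) over 15857 genes, with Benjamini-Hochberg adjustment over all of them and a threshold of 0.05. SE is the size of log2 fold change over the root of its F statistic. The procedure was tested on simulated counts. Sequences, exon lengths and overlaps came from RefSeq TAIR10.1, which has a row for 28009 of the 28775 loci. Total counts of 1633571 to 2196781 limit precision for low genes. Alternatives were DESeq2 size factors, library size scaling, other filters, DESeq2 1.42.0, limma-voom (limma 3.58.1), a minimum fold of 1.5, a dawn-gene covariate (mean log2 CPM of 8 genes, prior count 2) and leaving out each library.

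The members and the gene lists were chosen with earlier results of these data known. Named are all members and SPL genes, AP2, up to 6 called genes of each other list (the smallest p), or at most 2 of a list with none. TCL1, FD, CYP78A7, APL, AP3, PI, CRC, SEP2, AG, SEP1 and the uncalled meristem markers were named after their values were seen.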

Additional observations from a re-analysis of the deposited data

How the results depend on the processing

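Of 33 named genes followed over 14 settings each (462 values), 413 kept direction and side of the threshold, 37 lost a call, 4 gained one and 8 changed sign. SPL4 stayed below 0 under each of the 14 settings (log2 fold change -0.73 to -0.13) and lost its call in 7 of them, so that the number of members lower was 0 with a minimum fold of 1.5, 0 once the dawn-gene score entered the model, and 0 to 1 when 1 library was left out; members higher were 0 to 1 there. Genes higher and lower over the whole table were 549 and 815 by the DESeq2 Wald test, 111 and 177 with a minimum fold of 1.5, and 441 to 1816 and 668 to 1974 when 1 library was left out, against 929 and 1272. In the model holding the dawn-gene score SPL15, SPL14, SPL1 and SPL7 had log2 fold changes of -0.11, -0.27, -0.15 and -0.046 and AGL15 one of 0.24, each of the other sign than without it. When 1 library was left out SPL15 ranged over -0.023 to 0.14, below 0 without Dx5 and without CT1 (-0.0082), and SPL7 over -0.014 to 0.16, below 0 without CT1. The cause was not tested. No paired analysis was possible because the Dx columns carry numbers that match no title. SPL13A and SPL13B added as 1 gene gave no value, since both were at 0. Depth limits what can be seen of genes with few counts.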
